A study of Mus musculus with 2 samples.

Results

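Macrophages of the mouse lung that carried complement C1q transcripts but almost no Folr2, Lyve1 or Cd163 were described in 1 control library and 1 library from animals exposed to diesel exhaust particles. They were chosen by counts of unique molecular identifiers (UMIs, tags that each mark 1 transcript molecule). A barcode, the tag of 1 droplet, was taken where C1qa, C1qb and C1qc summed to at least 10 UMIs and Folr2, Lyve1 and Cd163 to at most 1. It also had to hold at most 3 UMIs of the alveolar macrophage genes Ear1, Plet1 and Fabp1, at most 2 of the pleural macrophage genes Serpinb2 and Prg4, none of Cd79a or Cd3e, and under 1% of its UMIs in S100a8 and S100a9. These limits left 45 of 9691 kept barcodes in the control library and 58 of 9396 in the exposed library, 103 of 19087 in all. Since measured values chose these cells, the levels of the genes used in the choice are given as a description only.

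All cells had been sorted from digested lungs by CD45, which marks leukocytes. The control animals were labelled Ccr2-/- and CD45.1+ and received no treatment, and the exposed animals were labelled Ccr2-/- and CD45.3+. Exposure was by whole-body inhalation of particles at 500 µg/m³, for 1 hour a day on 5 days a week during 2 weeks. The series' design text also names wild-type C57BL/6J mice, whereas both libraries carried the knockout label, and the labels did not say how many animals a library held. With 1 library per group there is no spread between animals and no test was made, and the exposure cannot be told apart from any other difference between the animals, sorts or runs.

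The control library held 62047730 UMIs in 10312 barcodes and the exposed library 67030914 in 10000. The libraries shared 23 barcode sequences and no shared barcode had identical counts. The chosen cells summed to 450598 and 611812 UMIs. A control cell held 871 UMIs at the lowest, 9213 at the median and 23290 at the highest, and an exposed cell 740, 10895.5 and 25064. Levels are given as UMIs of a gene per 1000000 UMIs, both summed over the cells (CPM), with 95% intervals in square brackets that cover only the error of counting.

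Interstitial macrophages live in the lung tissue around airways, vessels and nerves, apart from the alveolar macrophages of the air spaces. They are commonly split into a vessel-associated kind, known by the folate receptor Folr2, the hyaluronan receptor Lyve1 and the haemoglobin scavenger receptor Cd163, and a kind with little of these and more class II major histocompatibility complex (MHC) molecules, which present peptides to helper T cells. C1q, built from the C1qa, C1qb and C1qc chains, starts the classical complement pathway and tags debris for uptake. Macrophages without Folr2 are known to be replaced from blood monocytes, whose exit from the bone marrow depends on the chemokine receptor Ccr2.

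Of the markers that the selection did not use, Cx3cr1 and H2-Ab1 were found in most of the cells and Tmem119 in fewer. Cx3cr1, the fractalkine receptor, had 422 CPM [364 to 486] in control cells and 451 CPM [399 to 508] in exposed cells. A Cx3cr1 UMI was present in 82.2% of control and 70.7% of exposed cells, against 1.37% and 2.04% of B cells, at median depths of 3496 and 3738 UMIs per B cell and of 9213 and 10895.5 in the cells described. H2-Ab1, the beta chain of the MHC class II molecule I-A, was at 9088 and 10645 CPM and in 91.1% and 87.9% of the cells. B cells, which present antigen too, held it in 99.1% and 99.5%, so it does not tell these cells from them. Tmem119, a membrane protein best known from microglia, was sparse, with 57.7 CPM [37.7 to 84.5] in control cells and 34.3 CPM [21.2 to 52.5] in exposed cells. It was seen in 14 of 45 and 11 of 58 cells. With each cell thinned at random to 2000 UMIs its shares were 4.55% [0.555 to 15.5] and 7.55% [2.09 to 18.2], against 2.99% [0.364 to 10.4] and 10.6% [3.55 to 23.1] of the macrophages that carried Folr2, Lyve1 or Cd163, so at this depth Tmem119 did not separate the kinds. B cells showed a Tmem119 UMI in 0% of 2122 control and 0.0538% of 1860 exposed cells.

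Ccr2, the gene named in the genotype label, had 430.5 CPM [372 to 496] in control cells and 521 CPM [466 to 582] in exposed cells. Which part of the gene had been deleted is not given in the sources used here, so counts from the 3′ end of its transcript check nothing about the deletion. A Ccr2 UMI was found in 23 of 45 control and 41 of 58 exposed cells, at 51.1% [35.8 to 66.3] and 70.7% [57.3 to 81.9]. Thinned to 2000 UMIs, with 1 and 5 shallower cells left out, the shares were 43.2% [28.3 to 59.0] and 52.8% [38.6 to 66.7], and these intervals overlap. Without thinning B cells showed the gene in 4.43% and 3.01%, and the macrophages that carried Folr2, Lyve1 or Cd163 in 13.2% and 10.4%. Thinned to 2000 UMIs, the shares were 2.62% and 1.48% of B cells and 7.46% and 6.38% of those macrophages.

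The limits cut through cells on both sides. Among barcodes that met all the other limits, Folr2, Lyve1 and Cd163 summed to 0 in 37 control and 50 exposed cells and to 1 in 8 and 8, and just outside the limit they summed to 2 in 9 and 4 cells and to 3 in 6 and 3. The C1q sum lay between 10 and 14 in 1 control and 4 exposed cells, and just below the limit, between 5 and 9, in 2 and 4. C1q took 1.33% of a cell's UMIs at the median of the control and 1.43% at that of the exposed cells. It took at least 0.5% in 38 of 45 control and 43 of 58 exposed cells, and the lower quartiles were 0.903% and 0.504%.

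**Figure D1:**
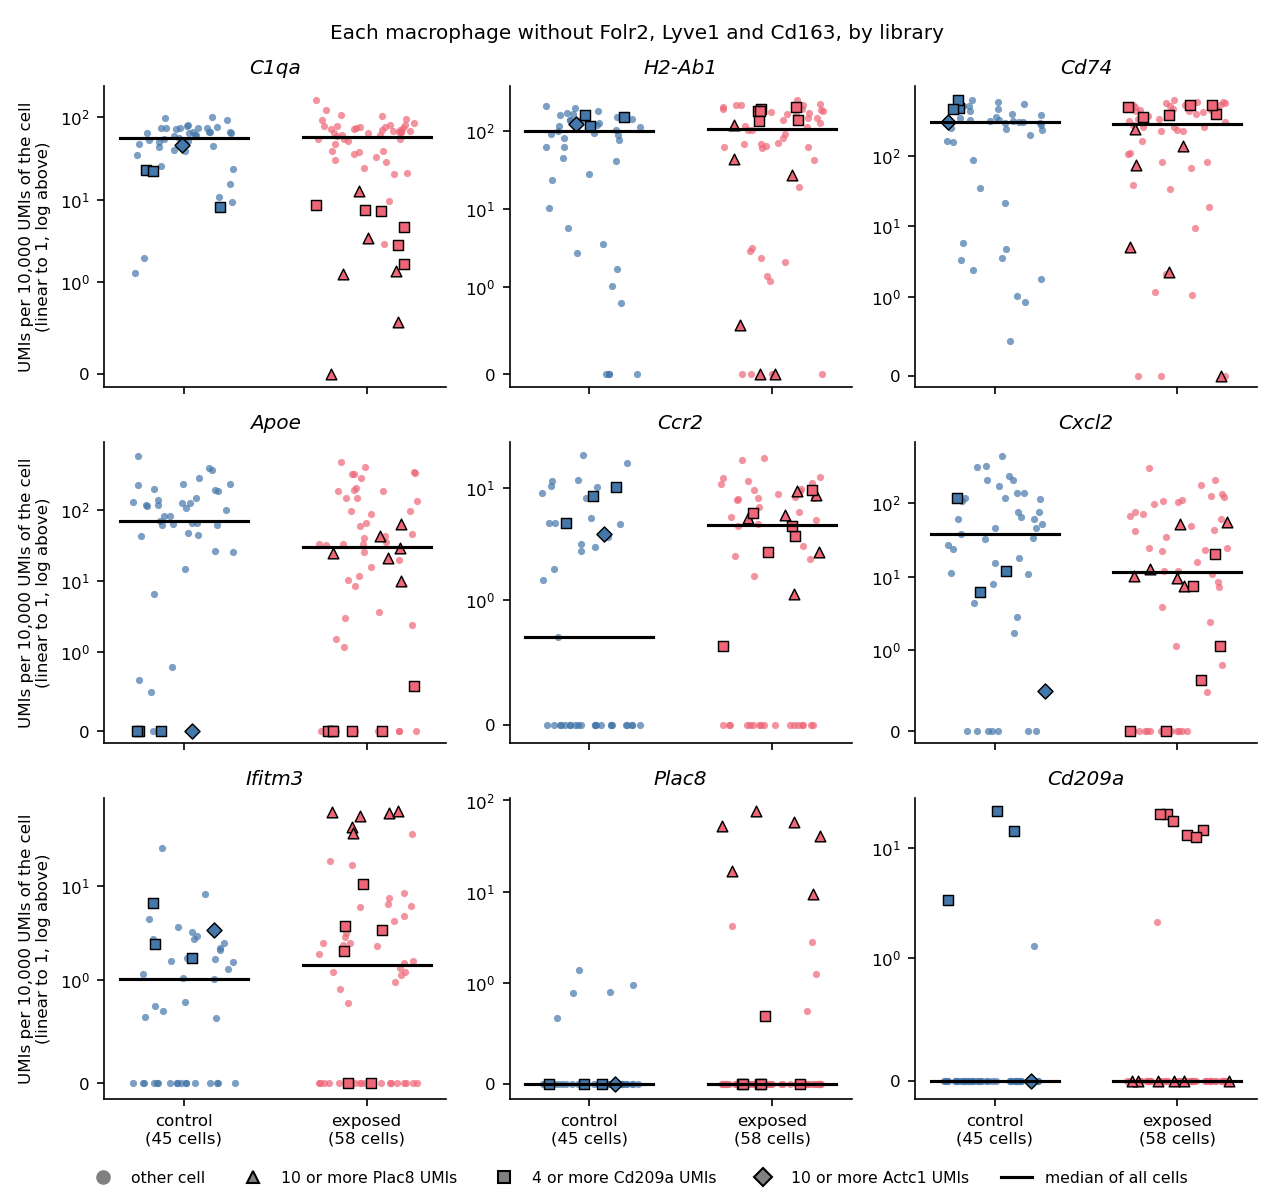
UMIs of 9 genes per 10,000 UMIs of the cell (vertical axis, linear to 1 and logarithmic above) in each of the 45 control and 58 exposed cells, with the median of all cells as a black line. Triangles, squares and the diamond mark cells with at least 10 Plac8, 4 Cd209a or 10 Actc1 UMIs; the 6 triangles are all in the exposed library, H2-Ab1 and Cd74 split the cells into a high and a low group, and Cxcl2 lies higher at the median in the control cells.

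MHC class II transcripts divided the cells of both libraries into a high and a low group. H2-Ab1 had 6 or fewer UMIs in 10 of 45 control cells (22.2% [11.2 to 37.1]) and in 14 of 58 exposed cells (24.1% [13.9 to 37.2]), and no cell of either library held 7 to 11. The next cells began at 13 UMIs in control and 12 in exposed cells and reached 284 and 451. The other chains followed the same split. H2-Aa, the alpha chain of I-A, and H2-Eb1, the beta chain of I-E, had 4 or fewer UMIs in all 10 low control cells and in 12 of the 14 low exposed cells. Cd74, the invariant chain that guards the peptide groove, had 11 or fewer UMIs in 10 of 10 and 11 of 14 low cells, although its median over all cells was 214 and 247.5 UMIs. Depth differed in part, since 3 of the 10 low control cells and 3 of the 14 low exposed cells had under 3000 UMIs in all, against 0 of 35 and 4 of 44 high cells. Its part in the split was not tested, but 7 and 11 of the low cells were deeper than that.

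Across cells, the share of UMIs in H2-Ab1 followed that in H2-Aa (Spearman's rho 0.88 over 45 control and 0.95 over 58 exposed cells), H2-Eb1 (0.86 and 0.96) and Cd74 (0.88 and 0.92). These are descriptions over cells of 1 library each, which share library and free RNA and are not replicates. The 250 bases before the start of H2-Aa and H2-Eb1 are shown because both genes were high or low in the same cells. Class II promoters are known for a conserved stretch of sequence elements that recruits the transactivator CIITA, of which the Y box is an inverted CCAAT element. The capitals mark CTGATTGG, searched on both strands (reverse complement CCAATCAG); this element holds the Y box letters ATTGG. The sequences are from RefSeq on GRCm38.p6, chr17:34287824-34288073 on the minus strand for H2-Aa and chr17:34305617-34305866 on the plus strand for H2-Eb1.
H2-Aa: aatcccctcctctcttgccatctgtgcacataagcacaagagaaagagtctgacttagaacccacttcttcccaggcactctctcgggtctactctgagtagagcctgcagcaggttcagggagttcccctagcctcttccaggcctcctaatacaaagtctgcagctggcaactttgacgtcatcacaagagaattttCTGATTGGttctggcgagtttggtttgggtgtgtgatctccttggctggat
H2-Eb1: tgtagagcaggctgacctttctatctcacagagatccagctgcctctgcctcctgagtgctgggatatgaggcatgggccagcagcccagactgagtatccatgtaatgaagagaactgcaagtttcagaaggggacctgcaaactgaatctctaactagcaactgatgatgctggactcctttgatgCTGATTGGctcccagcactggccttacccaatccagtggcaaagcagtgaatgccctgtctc
The element begins 51 bases before the start of H2-Aa and 62 bases before that of H2-Eb1. It stood in 3.83% of all 32851 windows of this length and in those of 4 of the 9 genes of the class II list that had one (H2-Aa, H2-Eb1, H2-Eb2 and H2-Oa). H2-Ab1 and Cd74 are not shown. A match is a description of letters, and binding was not measured.

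The class II low cells were mixed in their other transcripts. Apoe, the lipid carrier that tissue macrophages make in quantity, had at least 10 UMIs in 8 of the 10 low control and 11 of the 14 low exposed cells. Fn1, encoding fibronectin, had at least 10 UMIs in 4 and 2 of them, and 76.0% of all Fn1 UMIs of the control cells were in the low group. Of the exposed low cells, 3 held at least 10 UMIs of the monocyte gene Plac8, while none of the control low cells did. Apoe UMIs do not mark macrophages alone here, since 70.9% of control and 72.7% of exposed classical monocytes held one.

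Within the class II high cells the libraries differed in how Apoe and Ccr2 combined. At least 10 Apoe UMIs with no Ccr2 UMI were found in 15 of 35 control and 4 of 44 exposed cells. Apoe together with Ccr2 was found in 11 control and 21 exposed cells, Ccr2 with less Apoe in 8 and 15, and neither in 1 and 4. A Ccr2 UMI was thus present in 54.3% [36.6 to 71.2] of the control and 81.8% [67.3 to 91.8] of the exposed class II high cells, and these intervals overlap. The class II high cells include cells set apart below by genes of other kinds, and this split was not made without them. Their median depths were 8729 and 11138.5 UMIs, and the part of depth in this difference was not tested. Among class II low cells a Ccr2 UMI was present in 4 of 10 and 5 of 14.

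Several cells carried high counts of genes that mark other kinds of cell. The kinds were set apart after their counts had been seen. At least 10 UMIs of Plac8, a gene of blood monocytes, were found in 6 of 58 exposed cells (10.3% [3.89 to 21.2]) and in 0 of 45 control cells, which by a limit of 3 counts allows a share of up to 6.67%. These 6 cells held between 14 and 121 Plac8 UMIs and between 10 and 65 C1q UMIs, 0.16% of their UMIs at the median. They carried 98.8% of the UMIs of Ly6c2, the Ly6C antigen of classical monocytes, found among the exposed cells, 97.1% of those of Hp, which encodes haptoglobin, and 87.5% of those of Treml4, a gene of nonclassical monocytes. Mrc1, the mannose receptor, and the platelet factor gene Pf4 had 0 UMIs in all 6, while Apoe had between 15 and 83. For these cells the macrophage label rests on C1q alone, which the choice used, and their leading genes go against it. Apoe does not add to the label, since 72.7% of exposed classical monocytes held an Apoe UMI.

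At least 4 UMIs of Cd209a, a C-type lectin found on type 2 dendritic cells, were held by 3 control and 6 exposed cells. H2-Ab1 was high in them, with medians of 186 and 295.5 UMIs, and Apoe had 0 UMIs in the 3 control cells and at most 1 in the 6 exposed cells. Ms4a7 and Pf4, both genes of tissue macrophages, were at 0 in all 9. Ccl17, a chemokine of dendritic cells, had 11 UMIs over the control and 220 over the exposed cells of this kind, and Mmp12, the macrophage elastase, 138 and 177. Flt3, the growth factor receptor of dendritic cells, had 0 and 2 UMIs. The C1q sum ran from 25 to 76 in these control and from 10 to 40 in these exposed cells, 0.64% and 0.10% of UMIs at the median, so the macrophage label is weak for them too.

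One control cell of 20519 UMIs carried nearly all transcripts of heart muscle proteins. Its Actc1 count was 170 of 171 in the control library, and it held all 261 control UMIs of Myl7 and all 114 of Sln. It also held 229 C1q, 251 H2-Ab1 and 202 Retnla UMIs. The doublet score, which compares a cell with simulated pairs of cells, marked no control and 1 exposed cell. The pairs were built only from kept barcodes of the same library. The score therefore cannot judge a pair with a kind of cell that is absent there. Without the 3 kinds 41 control and 46 exposed cells remained, and the main counts between exposed and control cells are given with and without them. The comparison with macrophages that carried Folr2, Lyve1 or Cd163 was made with all cells only. Leaving out cells by their Plac8 or Cd209a count must lower these genes and genes found in the same cells, so this is no independent test.

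Smaller sets were present in both libraries. Cxcl13, the B cell attracting chemokine, had at least 10 UMIs in 6 of 45 control and 8 of 58 exposed cells, which held 99.8% and 97.0% of its UMIs. Retnla, which encodes a resistin-like protein made under interleukin 4, had at least 50 UMIs in 4 control and 2 exposed cells and was at 0 in 41 and 54. All 4 of these control cells also held Ccr2, at 8 to 30 UMIs. The Cxcl13 and Retnla sets shared no cell, since Retnla was at 0 in every Cxcl13 cell.

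Markers of T cells and of pleural macrophages were near 0 in these cells, while B cell markers were found at a low level. The 6 B cell markers had 75 and 119 UMIs, 166 and 194.5 CPM, with at least 2 UMIs in 20 of 45 and 26 of 58 cells and Cd79a at 0 by the choice, against 10602 and 10379.9 CPM in B cells. The 6 T cell markers had 6 and 1 UMIs in all control and exposed cells, with Cd3e, Trbc2 and Lef1 at 0 in both, and the 6 pleural macrophage markers 1 and 3, with Serpinb2, Prg4 and Alox15 at 0. The classical monocyte markers had 455 CPM in the control cells, with a range of 0 to 34 UMIs per cell, and 1278 CPM in the exposed cells, with 0 to 186. The 5 nonclassical monocyte markers had 71.0 and 191 CPM, with Treml4, Ace and Cd300e at 0 in the control cells. The 6 type 2 dendritic cell markers had 151 and 340 CPM, with Kmo at 0 in the control cells, and the 5 mature dendritic cell markers 79.9 and 240.3 CPM. The 7 neutrophil markers were at 199.7 and 382 CPM, with Cxcr2 at 0 in both and 88 of 234 exposed UMIs in 1 cell. The 10 alveolar macrophage markers were at 373 and 585 CPM, with 0 to 44 and 0 to 74 UMIs per cell and Krt79 and Car4 at 0 in both. The monocyte lists and the type 2 and mature dendritic cell, neutrophil and alveolar lists were higher in the exposed cells. Plasmacytoid dendritic cell markers had 195 and 183 CPM and type 1 dendritic cell markers 62.1 and 65.4 CPM. In B cells the alveolar markers were at 698 and 808 CPM and the neutrophil markers at 7248 and 5490 CPM, above the levels here. Classical monocyte and mature dendritic cell markers were also higher in B cells, while type 2 dendritic cell markers were lower. Within the alveolar list Ear2 was higher here, at 286 and 345 CPM against 72.5 and 93.1 CPM in B cells, although the list's sum was lower. Nonclassical monocyte markers were at 71.8 and 49.3 CPM in B cells. The part of each list in the differences between libraries was not tested beyond leaving out the kinds of cell above.

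Macrophages that met all other limits but held 2 or more UMIs of Folr2, Lyve1 and Cd163 were the nearest cells to compare with, 68 control and 48 exposed cells. Of 5000 genes compared, 74 (1.48%) were higher and 124 (2.48%) lower in the cells without these receptors in both libraries, where called means that the interval bound nearest to no difference lay beyond 1.5-fold. Since the choice by Folr2, Lyve1 and Cd163 fixes part of this contrast, the values describe the cells and no test was made. The cells without the receptors held more transcripts of antigen presentation and of Ccr2. They held fewer of chemokines and of the genes that go with Folr2.

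Of the 10 compared genes of the class II list 8 were higher and none lower. H2-Ab1 was at 9088 against 3315 CPM in the control library, a log2 ratio of 1.45 [1.38 to 1.53], and at 10645 against 2047 CPM in the exposed library, 2.38 [2.28 to 2.48]. Cd74 was at 27324 against 9144 CPM and at 29055 against 6797 CPM. The exceptions were Ctss, the protease cathepsin S, higher past 1.5-fold in the control library only, and Cd86, a costimulatory ligand, at 209 against 325 and 186 against 353 CPM. Ccr2 was at 430.5 against 92.2 CPM in the control, 2.22 [1.83 to 2.63] on the log2 scale, and at 521 against 37.5 CPM in the exposed library and a log2 ratio of 3.76. Cx3cr1 did not separate the kinds, at 422 against 434 and 451 against 580.0 CPM.

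The 10 genes that stood highest by the nearer bound of both libraries were led by Ear2 and Mmp12. Ear2, an eosinophil-associated ribonuclease and a member of the alveolar marker list above, was at 286 against 10.2 CPM in the control library. In the exposed library Ear2 was at 345 against 6.62 CPM. Mmp12, which degrades elastin, was at 757 against 48.7 CPM in the control, and at 503 CPM against no UMI in the exposed library. Neither gene was spread evenly, since 1 cell held 32.6% of the control Ear2 UMIs and 30.2% of the control Mmp12 UMIs. The Cd209a cells described above held part of the Mmp12 UMIs of both libraries. Fn1 was at 969.8 against 34.6 and 219 against 19.8 CPM. Itgax, the integrin CD11c, was at 158 against 16.7 and 134 against 6.62 CPM. S100a6, a calcium-binding protein, was at 1107 against 145 and 1353 against 256 CPM, and Rgs1, a brake on chemokine receptor signalling, at 621 against 105 and 608 against 68.4 CPM. The others were AA467197, Lyz1, Gngt2 and Il7r. Of these, Lyz1, a lysozyme, had 68.0% and 88.5% of its UMIs in 1 cell.

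The 10 lowest genes were led by chemokines and receptors. Ccl8 was at 11.1 against 637 CPM in the control and 1.63 against 371 CPM in the exposed library. Ccl24, an eosinophil chemokine, was at 8.88 against 232 and 1.63 against 399 CPM, and Ccl12, a ligand of Ccr2, at 219.7 against 1934 and 141 against 1142 CPM. Cbr2, a carbonyl reductase, was at 42.2 against 625 and 11.4 against 584 CPM, and F13a1, a coagulation factor subunit, at 95.4 against 1012 and 65.4 against 946 CPM. Cd209f, a lectin, and Ednrb, the endothelin B receptor, had no UMI in the cells without Folr2 of either library, against 129 and 158 CPM in the control macrophages with the receptors. Fcna, Pla2g2d and C4b completed the 10. Of the 14 compared genes of the Folr2 list 13 were lower, of the 14 chemokines 6 were lower and none higher, and of the 20 macrophage identity genes 5 were lower and none higher. Among the last, Csf1r, the receptor of the survival factor CSF1, was at 839 against 1680 and 682 against 1888 CPM. Apoe was at 8154 against 18172 and 6813 against 27009.6 CPM.

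**Figure D2:**
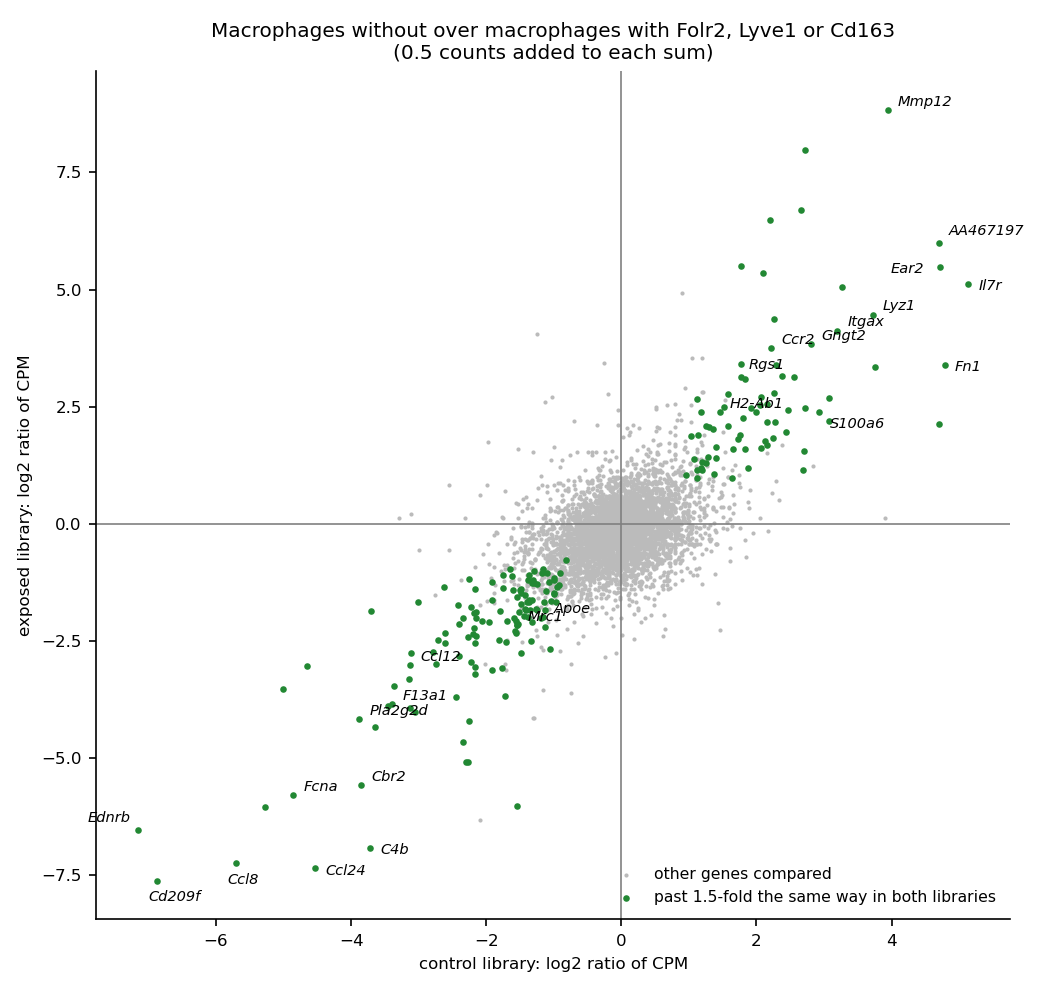
Log2 ratio of CPM between the cells without and the macrophages with Folr2, Lyve1 or Cd163, in the control (horizontal) and the exposed library (vertical), for 5000 genes. Green points are the 74 higher and 124 lower genes past 1.5-fold the same way in both libraries; Mmp12, Ear2, Fn1, Ccr2 and H2-Ab1 lie at the upper right and Ccl8, Ccl24, Cbr2 and F13a1 at the lower left.

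The cells without Folr2 made up 0.464% [0.339 to 0.621] of kept control and 0.617% [0.469 to 0.797] of kept exposed barcodes. The ratio of 1.33 [0.885 to 2.01] includes no difference. The macrophages with Folr2, Lyve1 or Cd163 were at 0.702% and 0.511%. Of the 113 control and 106 exposed barcodes that met all the other limits, 45 and 58 were cells without these receptors. At least 10 C1q UMIs were held by 178 control and 159 exposed kept barcodes, including those that the other limits removed. Of these wider sets the cells without the receptors made up 25.3% [19.1 to 32.3] in the control and 36.5% [29.0 to 44.5] in the exposed library. Without the 3 kinds of cell the shares of kept barcodes were 0.423% [0.304 to 0.574] and 0.490% [0.359 to 0.652]. Shares of sorted cells do not give cell numbers per lung.

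Between exposed and control cells, 56 of 5219 genes with at least 20 UMIs in sum (1.07%) were higher and 93 (1.78%) lower past 1.5-fold in the exposed cells. These overall shares are the ones to set beside the counts of called list members below. The exposed cells held more transcripts of genes of the interferon response and of monocytes, and fewer of the neutrophil chemokines Cxcl1 and Cxcl2, of the early gene Egr1 and of the scavenger receptor Cd36. Single cells weighed heavily. Over 25% of the UMIs in the higher library came from 1 cell for 25 of the 56 higher and 51 of the 93 lower genes, and over 90% for 22 of the lower genes. Of the 56 higher genes 15 stood at under 0.5 times their level in the other kept barcodes of the exposed library, where RNA set free from other cells could supply UMIs, among them Hp, Thbs1, Clec4e, Chil3 and Gsr. Without the 3 kinds of cell 20 genes were higher and 51 lower, of which 16 and 33 were among those called with all cells. The median log2 ratio of all measured genes was -0.13. Centred on it, the calls were 71 higher and 66 lower, so that the share of higher calls was 51.8% in place of 37.6%.

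Genes induced by interferon were higher in the exposed cells, with 5 of the 11 measured members of the list called higher and none lower, at a median log2 ratio of 1.04 against -0.13 over all genes. Ifitm3, which blocks virus entry into cells, had 110 UMIs in the control and 637 in the exposed cells, 244 and 1041 CPM, a log2 ratio of 2.09 [1.80 to 2.40]. Both libraries had a median of 1 Ifitm3 UMI per cell, and the difference lay in the upper cells, with 39 UMIs in the highest control and 108 in the highest exposed cell. The 6 Plac8 cells held 70.6% of the exposed Ifitm3 UMIs, and without the 3 kinds of cell the gene was at 220.5 and 366 CPM, no longer called. Ifi27l2a, a small interferon-induced protein, was found in 35 of 45 and 53 of 58 cells, at 462 and 1085 CPM, a log2 ratio of 1.23 [1.01 to 1.47]. It kept its call without the 3 kinds, at 421 and 886 CPM. Ly6e was at 397 and 817 CPM.

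Irf7, the master transcription factor of the interferon response, had no UMI in 45 control cells and 46 UMIs in 10 of 58 exposed cells. Against a floor of 3 counts in the control sum it was at least 11.3-fold higher. Of its 46 UMIs 58.7% were in the Plac8 cells, and the other 19 were in 5 exposed cells. Rtp4, an interferon-induced chaperone of receptors, had 1 UMI in 1 control cell and 22 in 12 exposed cells, a ratio of 16.2 [2.62 to 669], and 19 of the 22 remained without the 3 kinds. The list's median was then 0.89, with 3 of 10 measured genes called higher. Cells were left out partly by Plac8, a member of the monocyte list. The interferon list therefore cannot be set against the 2 monocyte lists below, and no such difference was tested.

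Of the monocyte list 7 of 14 measured genes were called higher and 2 lower, at a median of 1.44. Plac8 had 5 UMIs in 5 control cells and 371 UMIs in 11 exposed cells, 11.1 and 606 CPM. Hp had no UMI in the control and 70 in 7 exposed cells, at least 17.2-fold higher against the floor. Ly6c2 had 1 and 82 UMIs, Thbs1, which encodes thrombospondin 1, 20 and 130, and Clec4e, the mycobacterial receptor Mincle, 17 and 122. Chil3, a chitinase-like protein, had 24 and 134 UMIs, 55.2% of the exposed UMIs in 1 cell. Without the 6 Plac8 cells the list's median was -0.15 and Plac8 was at -0.23 on the log2 scale. The members called lower were Fn1, with 437 UMIs in 7 control and 134 UMIs in 8 exposed cells, and Cd36, both of which kept their calls without the 3 kinds. Lyz2, the lysozyme of myeloid cells and the member with the largest sum, was at 12239 and 11909 CPM. S100a4 was at 686 and 977 CPM with all cells and at 654 and 527 CPM without the 3 kinds.

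The nonclassical monocyte list had 4 of 9 measured genes called higher, none lower, and a median of 1.09. Ace, the angiotensin-converting enzyme, had no UMI in the control and 30 in 5 exposed cells, at least 7.36-fold higher against the floor, with 15 of the 30 in 1 cell. Fabp4, a fatty acid carrier, had 1 and 48 UMIs, 91.7% of the latter in 1 cell. Adgre4, an adhesion receptor of myeloid cells, had 6 UMIs in 4 control and 35 in 16 exposed cells, a log2 ratio of 2.01 [0.84 to 3.64]. Nr4a1, the nuclear receptor on which nonclassical monocytes depend, was at 530.4 and 453 CPM, and Dusp5 at 142 and 131 CPM. Without the 6 Plac8 cells the median was -0.084, and without the 3 kinds Adgre4 had 4 and 17 UMIs and was no longer called.

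Other genes named by size did not belong to these lists. Ms4a6c, of the MS4A family of membrane proteins, was found in 28 of 45 control and 50 of 58 exposed cells, at 142 CPM [109 to 181] and 466 CPM [413 to 523], and remained called at 147 and 403 CPM without the 3 kinds. Ms4a4c, of the same family and chromosome 19, had 1 UMI in 1 control cell and 51 UMIs in 14 exposed cells, 68.6% of them in the Plac8 cells. Cited2, a partner of the coactivators CBP and p300, was in 17 and 29 cells, at 97.6 and 279 CPM. Limd2, a LIM domain protein, was in 9 and 33 cells, at 28.9 and 142 CPM. Adora2b, the adenosine A2B receptor, was in 3 and 16 cells, at 8.88 and 58.8 CPM, and Mcm7, a subunit of the replicative helicase, in 3 and 13 cells, at 6.66 and 49.0 CPM. The non-coding AY036118 was at 233 and 611 CPM. It was also higher in the exposed macrophages with Folr2, Lyve1 or Cd163, at 137 and 293 CPM. Cited2 and Limd2 were not higher in those macrophages, at 269 and 192 CPM and at 118 and 79.4 CPM. Cd209a, at 95.4 and 278 CPM, had 95.3% and 98.2% of its UMIs in the Cd209a cells and was no longer measured without them. Of the 12 named higher genes 7 remained called without the 3 kinds, 2 fell below the 20 UMIs needed and all 12 kept their sign.

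**Figure D3:**
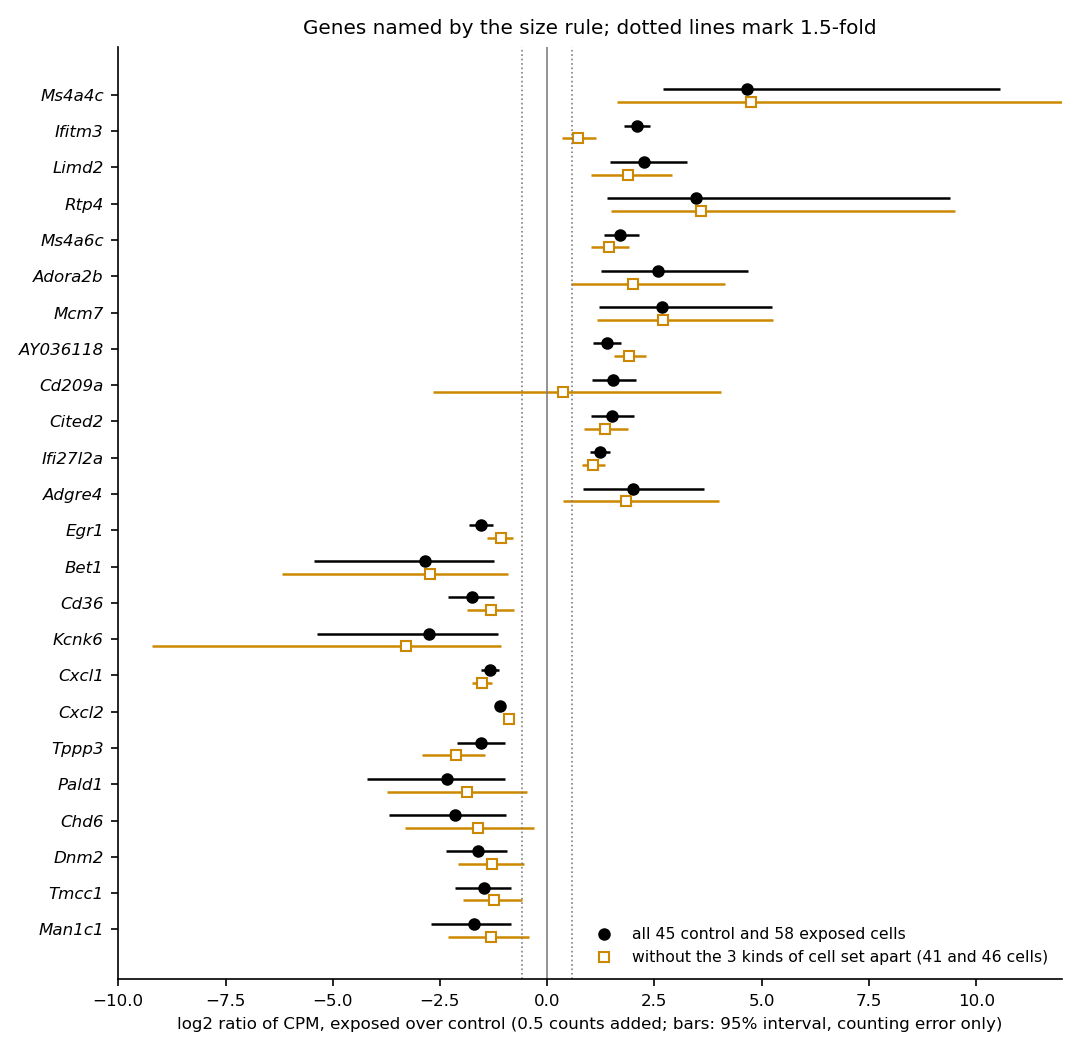
Log2 ratio of CPM, exposed over control, for the 12 highest and 12 lowest genes by the size rule, with 95% intervals for counting error only. Black points use all cells and open squares leave out the 3 kinds (the Ms4a4c bar that meets the edge has no upper bound); all 24 genes keep their sign, while Ifitm3 moves from 2.09 to 0.73 and Cd209a from 1.53 to 0.37.

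Neutrophil chemokines were lower in the exposed cells. Cxcl2 had 3437 UMIs in the control and 2192 in the exposed cells, 7628 CPM [7375 to 7887] and 3583 CPM [3434 to 3736], 2.13-fold higher in the control. A control cell held 0 at the lowest, 30 at the median and 446 at the highest, an exposed cell 0, 11.5 and 228, so the cells of the libraries overlapped widely. Its neighbour Cxcl1 (GRCm38, chromosome 5, 90891241 to 90893115, against 90903871 to 90905938 for Cxcl2, both on the plus strand) had 548 and 294 UMIs, in 22 of 45 and 20 of 58 cells, a log2 ratio of -1.34 [-1.55 to -1.13]. Without the 3 kinds of cell both remained called, Cxcl2 at 8518 and 4555 and Cxcl1 at 1379 and 481 CPM. Ccl6 was called lower as well, at 1440 and 404 CPM, but 1 control cell held 55.9% of its control UMIs. Of the 13 measured chemokines these 3 were lower and none higher, at a median of -0.47. Ccl4, a chemokine of activated macrophages, was at 1551 and 1940 CPM.

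Of 18 measured genes of the cytokine and NF-kB list none was called higher and 3 lower, at a median of -0.16. Il1b, the inflammasome cytokine, was at 2747 CPM in the control and 3722 CPM in the exposed cells, a log2 ratio of 0.44 [0.34 to 0.54], with medians of 6 and 13 UMIs per cell. Without the 3 kinds the order turned, with Il1b at 3039 and 2363 CPM. Nfkbia, the inhibitor that NF-kB induces, was at 1993 and 2741 CPM. The lower members were found in few cells: Il6 had 38 UMIs in 4 control and 14 in 6 exposed cells, Il12b 30 UMIs in 3 control and 2 in 2 exposed cells, most of the control UMIs in 1 cell, and Il1a 72 and 37 UMIs.

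Egr1, an immediate early transcription factor, had 325 UMIs in the control and 152 in the exposed cells, 721 and 248 CPM, a log2 ratio of -1.54 [-1.83 to -1.26]. The median cell held 4 control and 0.5 exposed UMIs. It was the 1 called gene of the 19 measured in the list of early and dissociation genes, whose median of -0.079 lay near that of all genes, and Junb, the member with the largest sum, was at 2912 and 2757 CPM. Zfp36 was at 2408 and 1638 CPM and Dusp1 at 2097 and 1621 CPM, short of the call.

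Some receptors for uptake and some genes that go with Folr2 were called, where 1.07% of all measured genes were called higher and 1.78% lower. Cd36, which takes up oxidised lipid and dead cells, was found in 24 of 45 and 21 of 58 cells, at 233 and 68.6 CPM, a log2 ratio of -1.75 [-2.32 to -1.23], and at 246 and 98.5 CPM without the 3 kinds. Of 15 measured uptake receptors 2 were lower and 1 higher, at a median of -0.26. The second lower gene was Stab1, the scavenger receptor stabilin 1, at 191 and 80.1 CPM. Fcgr4, an activating receptor for antibody, was the higher one at 46.6 and 129 CPM, with 41.8% of the exposed UMIs in 1 cell. Tyrobp, the signalling adaptor DAP12, was at 1798 and 2493 CPM. Of the Folr2 list, whose defining genes the choice had removed, 2 of 11 measured genes were lower, Stab1 and Pf4, and none higher. Pf4 was at 1112 and 561 CPM, and Mrc1, which was not called, at 626 and 407 CPM. Neither Stab1 nor Pf4 remained called without the 3 kinds, at 210.3 and 108 and at 1269.7 and 804 CPM.

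The remaining named lower genes had few UMIs each. Tppp3, which binds tubulin, was at 195 and 67.0 CPM, and remained called without the 3 kinds at 218 and 49.2 CPM. Bet1, a SNARE of transport between the endoplasmic reticulum and the Golgi, had 18 UMIs in 16 control cells and 3 in 3 exposed cells. Kcnk6, a potassium channel, had 17 UMIs in 14 and 3 in 3 cells. Dnm2, the dynamin that pinches off endocytic vesicles, was at 126 and 40.9 CPM in 30 and 19 cells. Pald1, Chd6, Tmcc1 and Man1c1 had between 20 and 64 control UMIs and between 5 and 31 exposed UMIs. Of the 12 named lower genes 6 remained called without the 3 kinds, 2 fell below 20 UMIs and all 12 kept their sign.

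No gene of the class II or complement lists was called, where 1.07% of all measured genes were called higher and 1.78% lower. The 10 measured class II genes had a median of 0.17, and H2-Aa, with the second largest sum, was at 11392 and 12367 CPM. H2-DMb1, which helps load peptides, was at 588 and 809 CPM, and Ctss at 3189 and 2303 CPM. The 12 measured complement genes had a median of -0.13. C1qa was at 4594 and 4297 CPM and C1qb at 3762 and 4217 CPM, which the choice used, and without the 3 kinds C1qa was at 4873 and 5992 CPM. Cfp, properdin, was at 159.8 and 281 CPM. Of 20 macrophage identity genes Pf4 alone was called, at a median of -0.26. Apoe was at 8154 and 6813 CPM and at 9311 and 9141 CPM without the 3 kinds, Cd14 at 2146 and 2355 CPM and Aif1 at 470.5 and 609.7 CPM.

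Matrix and growth factor genes differed in both directions. Of 17 measured matrix and growth factor genes 2 were higher and 3 lower, at a median of -0.33. Mmp13, a collagenase, had 93 UMIs in 11 control cells and 9 in 3 exposed cells, a log2 ratio of -3.74 [-4.98 to -2.82]. Of its control UMIs 32.3% were in 1 cell. Fn1 was lower as well. Vegfa, the vascular growth factor, had 8 UMIs in 4 control and 56 in 14 exposed cells and remained called without the 3 kinds, and Thbs1, the other higher member, was no longer called without them, at 20 and 42 UMIs. Mmp12, at 757 and 503 CPM, and Cd9, at 781 and 458 CPM, had the largest sums and were not called. Retnla was lower at 3422 and 883 CPM, but 4 cells of each library held all of its UMIs.

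The lists of pathways that respond to particles or oxidants held between 4 and 18 measured genes each. With so few genes, their calls cannot be set closely against the 1.07% higher and 1.78% lower of all measured genes. Of 18 measured genes of the NRF2 and oxidative stress list, Gsr, glutathione reductase, was called higher, with 7 UMIs in 5 control and 67 in 14 exposed cells, and without the 3 kinds it had 6 and 12. Gpx1, a glutathione peroxidase, was at 1531 and 1546 CPM, Prdx1, a peroxiredoxin, at 701 and 554 CPM, and Slc7a11, the cystine importer, at 91.0 and 49.0 CPM. Without the 3 kinds Slc7a11 was called lower, at 104 and 28.1 CPM. The aryl hydrocarbon receptor list had 4 of 8 genes measured and none called, with Tiparp, a target of the receptor, at 122 and 105 CPM and Ahr at 18 and 28 UMIs. None of 9 iron genes was called, and Fth1, the ferritin heavy chain, was at 11853 and 10737 CPM. Mt2, a metallothionein, was at 115 and 212 CPM, and at 132 and 86.7 CPM without the 3 kinds.

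The other lists held between 0 and 3 calls each. Of 19 lysosome genes Ctsd, the protease cathepsin D, was lower at 566 and 242 CPM, with 56.1% of its control UMIs in 1 cell, while Psap, prosaposin, was at 3469 and 2667 CPM. Of 12 genes of glycolysis and hypoxia Vegfa was called, and Gapdh was at 533 and 672 CPM. Of 12 heat shock genes Hspb1 was lower, at 17 and 4 UMIs. Of 9 measured cell cycle genes 3 were lower, Mki67, Top2a and Birc5, at a median of -0.78. The 38 control UMIs of Top2a, a topoisomerase of dividing cells, came from 2 cells, 86.8% from 1. None of 19 growth factor and chemokine receptors was called, with Csf1r at 839 and 682 CPM and Ifngr1, a chain of the interferon gamma receptor, at 262 and 384 CPM. Of 13 lipid genes Fabp4 was higher and Cd36 lower, and Pltp, a phospholipid carrier, was at 439 and 616 CPM. Of 8 alternative activation genes Chil3 was higher and Retnla lower, and Mgl2, a lectin, was at 746 and 827 CPM.

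**Figure D4:**
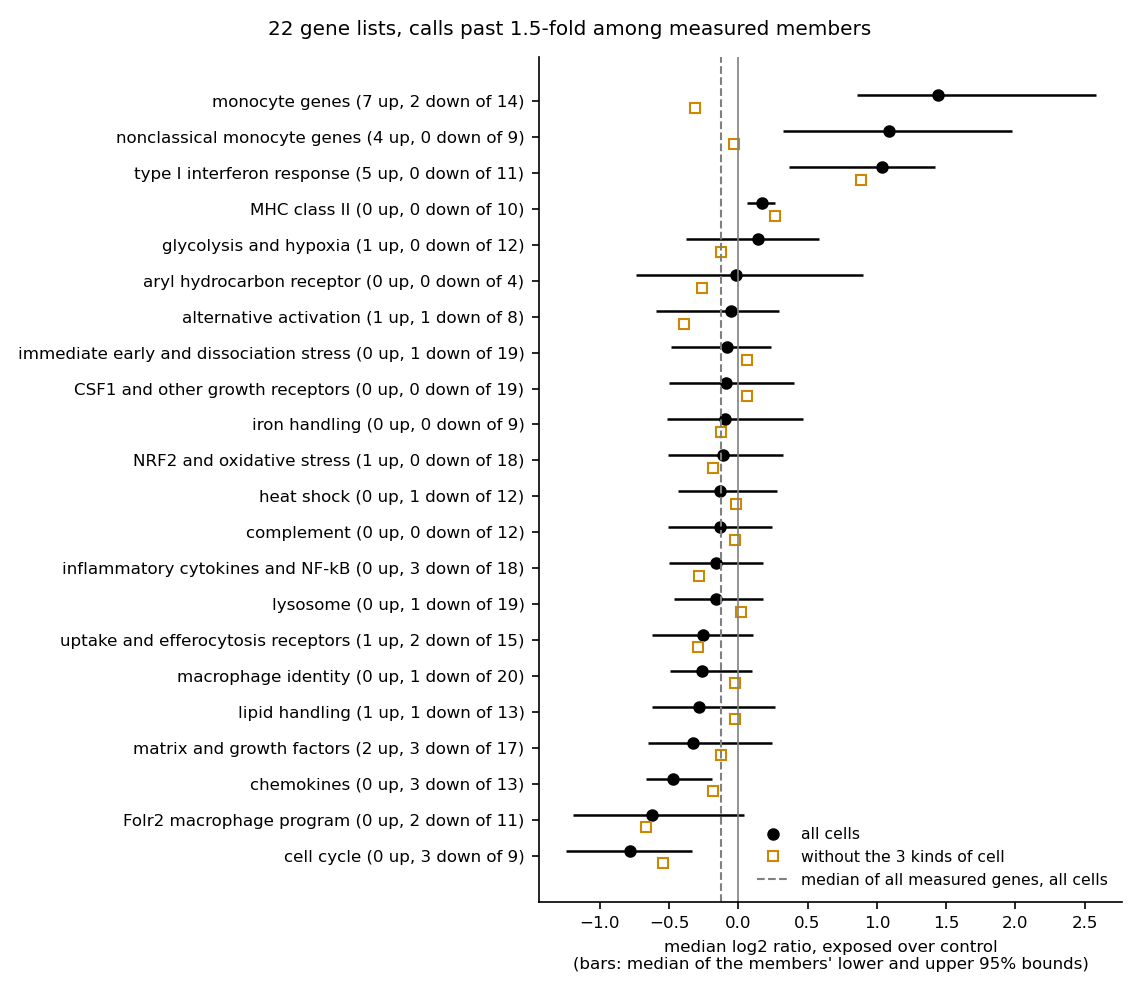
Median log2 ratio, exposed over control, of the measured members of 22 gene lists, with the medians of the members' lower and upper 95% bounds as bars and the median of all 5219 measured genes dashed. The monocyte list is at 1.44 with all cells (black) and -0.31 without the 3 kinds (open squares). The nonclassical list is at 1.09 and -0.032, and the interferon list at 1.04 and 0.89. The paired medians cover different genes, since measured members fall from 14 to 9, from 9 to 7 and from 11 to 10. Plac8, which chose cells left out, is itself in the monocyte list.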

How the data were processed

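CD45+ cells of 1 control and 1 exposed mouse lung sample were profiled with 10x Genomics 3′ v3.1 chemistry. The deposited values are raw counts of UMIs per gene and barcode, made against mm10 with Cell Ranger, version 3.1.3 per the submitters' processing notes and 3.1.0 per the file headers; the annotation is not given in the sources used here. The tables held 31053 genes.

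A barcode was kept where it held 500 or more UMIs from 200 or more genes, with no more than 10% of them mitochondrial, which removed 621 control and 604 exposed barcodes, and the limits given in the report chose the cells. No barcode was removed as a doublet; a score against simulated doublets, run at 0.8% per 1000 barcodes, marked 751 and 706 barcodes. UMIs were summed per library. CPM have exact Poisson intervals, shares exact Clopper-Pearson intervals, and log2 ratios (0.5 counts added) exact conditional binomial intervals. Genes with at least 20 UMIs in both libraries together counted as measured, leaving out mitochondrial, ribosomal, haemoglobin, sex-linked and antigen receptor genes. A gene was called where the bound nearest to no difference passed 1.5-fold. Calls were tried on simulated library sums with known changes, drawn with counting error only. The simulation held no spread between cells, so it does not cover calls that rest on 1 cell.

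Named are the 12 highest and 12 lowest called genes by that bound, leaving out genes with over 25% of the higher library's UMIs in 1 cell or at under 0.5 times the level in other barcodes, and 2 members by sum and 2 by ratio of each of 22 lists. Others were named after their values were seen. Some list members are not reported here. The cells, lists and 15 marker lists were chosen with earlier results of these data known. Gene positions are from GENCODE on GRCm38, promoters from RefSeq on GRCm38.p6. Python 3.11.15, numpy 2.4.6, scipy 1.17.1 and pandas 2.3.3 were used.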

Additional observations from a re-analysis of the deposited data

Results flagged for a closer look

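Ccl22, a chemokine of mature dendritic cells and macrophages, moved in opposite directions in the macrophage kinds. In the cells without Folr2, Lyve1 and Cd163 it had 24 control and 110 exposed UMIs, a log2 ratio of 1.73 [1.11 to 2.46], with 36.4% of the exposed UMIs in 1 cell. In the macrophages with these receptors it had 86 and 12 UMIs, a log2 ratio of -2.01 [-3.07 to -1.18]. The difference between the kinds was not tested, since each has 1 library per group. Of the 110 exposed UMIs 68.2% were in the 6 Cd209a cells.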

How the results depend on the processing

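No paired analysis was possible because each group has 1 library. With all cells 56 genes were higher and 93 lower in the exposed cells. The counts were 35 higher with a C1q sum of at least 20, 30 without the Plac8 cells, 20 higher and 51 lower without all 3 kinds of cell, 20 higher with C1q at 0.5% of UMIs or more, 144 lower with each cell weighing the same, 9 higher and 17 lower with cells thinned to 2000 UMIs, and 36 and 49 with a gene minimum of 50 UMIs. Leaving out cells with 2 UMIs of another lineage left 3 control and 4 exposed cells and 85 measured genes, with 6 higher and 4 lower. The shares of kept barcodes were then 0.0310% and 0.0426%. With C1q at 0.5% or more the exposed share was 0.458%, and of barcodes with at least 10 C1q UMIs the shares were 25.3% and 36.5%.

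Directions turned under some settings, given as log2 ratios. With the 3 and 4 cells just named these were Bet1 (0.63), Cxcl1 (5.84), Cxcl2 (0.45), Tppp3 (2.22), Dnm2 (0.63), Pf4 (1.69), Ccl6 (0.63), Fcgr4 (-0.59) and the class II median (-0.36), where 7 cells carry every value. Without the Plac8 cells they were Plac8 (-0.23), Chil3 (-0.42) and the medians of the monocyte (-0.15) and nonclassical lists (-0.084), and without all 3 kinds the same 4 at -0.40, -0.39, -0.31 and -0.032. Among the uncalled genes that turned without all 3 kinds were Il1b (-0.36), S100a4 (-0.31), Mt2 (-0.60) and C1qa (0.30). With C1q at 0.5% or more they were Cd209a (-2.10), Plac8 (-0.52), Ccl6 (0.39), Ctsd (0.26), Chil3 (-0.54) and the monocyte (-0.54), nonclassical (-0.58) and chemokine medians (0.098). With each cell weighing the same the cell cycle median was 0.40, and thinned cells put Birc5 at 1.32. These settings leave out or reweight the cells that hold the UMIs. The settings on Plac8, Cd209a, Actc1 and the C1q share were chosen after seeing the data.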
